A study of Mus musculus with 6 samples.

Results

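The transcripts described here encode enzymes and a transporter of arginine and polyamine metabolism in BV2 cells. BV2 is an immortalized mouse line used as a model of microglia, which are the macrophages that live in the brain. The set comprised 10 genes (Arg1, Arg2, Nos2, Odc1, Ass1, Asl, Slc7a2, Sat1, Sat2 and Srm) out of 20659 named genes on the array. The genes were chosen by symbol, and every non-control probe whose RefSeq transcript belongs to one of them was taken, which gave 15 of 39429 probes. Probes named in the scanner files by other kinds of accession could not be matched and are not analysed here. The cells were plated on poly-L-lysine and then received recombinant murine IL-4 at 10 ng/ml for 24 hr (3 samples) or PBS for 24 hr (3 samples). All 6 samples share the cell line, the serum-containing medium and the plating. Each was hybridised to its own single-colour Agilent array. No label says that the samples came from separate cultures, and the p-values cover no more than the spread of these 6 samples, part of which may be technical.

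Macrophages use arginine in competing ways. Arginases split it into urea and ornithine, and inducible nitric oxide synthase converts it to nitric oxide and citrulline, which argininosuccinate synthase and lyase can turn back into arginine. Ornithine decarboxylase makes putrescine from ornithine, spermidine synthase extends it, and spermidine/spermine acetyltransferase, encoded by Sat1, starts the return path. IL-4 is known to induce arginase 1 through STAT6 in mouse macrophages, while nitric oxide synthase is linked to classical, pro-inflammatory activation.

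On each array, 87.9% to 98% of probes were well above background, and no spot was saturated. With 3 arrays a group, precision is limited by the number of arrays. By the scan records, slide 1 carried all 3 IL-4 arrays together with PBS replicate 1, and slide 2 carried the remaining PBS arrays, so IL-4 can be set against PBS within slide 1 through 1 PBS array. Of 13 microglia and macrophage markers with a probe, 6 lay above the 75th percentile of the array on all 6 arrays (Trem2, Adgre1, Csf1r, Fcer1g, Itgam and Tyrobp). P2ry12, Tmem119 and Cx3cr1, markers of resting microglia, lay below it, as did Ptprc, Aif1 and Spi1. All 5 hepatocyte markers were below it, among them the urea cycle genes Cps1 and Otc. Snap25 of the neuron list, Mog of the oligodendrocyte list and Pecam1 of the endothelial list were above the 75th percentile on all 6 arrays. Standing above this line is thus no mark of macrophages alone. The linear levels of the macrophage list were summed on the scale of the array's 75th percentile. The sums were 55.6 to 61.8 with IL-4 and 62.4 to 77.9 with PBS, without overlap by a narrow margin. Tyrobp, Lyz2 and Aif1 were called lower on their brightest probes, in a fit that takes no account of slide. Over all tested probes, 2.84% were called lower, and 17% separated the groups upwards and 20.6% downwards. With slide as a block, 9 of all tested probes were called lower. The summed levels of 5 lymphocyte markers were 1.71 to 1.83 with IL-4 and 0.81 to 1.42 with PBS, and those of 5 oligodendrocyte markers 3.48 to 3.9 with IL-4 and 1.9 to 3.33 with PBS. For 5 neuron markers they were 2.07 to 2.45 with IL-4 and 1.63 to 1.9 with PBS, and for 5 astrocyte markers 0.69 to 0.748 with IL-4 and 0.558 to 0.649 with PBS. The sums of the hepatocyte (0.477 to 0.598 with IL-4, 0.51 to 0.57 with PBS), fibroblast (0.238 to 0.306 with IL-4, 0.282 to 0.32 with PBS) and endothelial lists (9.95 to 13.3 with IL-4, 10 to 14.8 with PBS) overlapped. No marker of another cell type was called, and the part of these shifts in the results below was not tested. All 6 samples are of 1 cell line, so these sums describe transcript levels and do not count cells of other types.

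The RefSeq promoter table (GRCm38.p6) held sequence for 4 of the 10 genes, Odc1, Ass1, Sat1 and Sat2. The 250 bases before the start given there are printed for Sat2, the gene whose brighter probe fell, for its paralog Sat1, which was not called, and for Ass1, which held the one motif match. Capitals mark that match. For Sat2 and Odc1 this start lies downstream of the start in the gene annotation used for symbols. The last bases of those stretches are therefore within the annotated gene.
Sat2, chr11:69621802-69622051, plus strand: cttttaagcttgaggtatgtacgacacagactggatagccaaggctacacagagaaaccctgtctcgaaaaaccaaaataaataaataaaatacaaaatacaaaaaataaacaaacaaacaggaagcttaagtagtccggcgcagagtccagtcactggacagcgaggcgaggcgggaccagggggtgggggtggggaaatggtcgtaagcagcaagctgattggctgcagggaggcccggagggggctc
Sat1, chrX:155216450-155216699, minus strand: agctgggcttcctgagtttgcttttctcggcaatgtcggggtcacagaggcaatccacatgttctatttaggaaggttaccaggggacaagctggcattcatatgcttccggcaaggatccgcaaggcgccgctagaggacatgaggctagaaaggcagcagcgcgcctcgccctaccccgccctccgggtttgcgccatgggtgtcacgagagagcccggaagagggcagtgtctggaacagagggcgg
Ass1, chr2:31470020-31470269, plus strand: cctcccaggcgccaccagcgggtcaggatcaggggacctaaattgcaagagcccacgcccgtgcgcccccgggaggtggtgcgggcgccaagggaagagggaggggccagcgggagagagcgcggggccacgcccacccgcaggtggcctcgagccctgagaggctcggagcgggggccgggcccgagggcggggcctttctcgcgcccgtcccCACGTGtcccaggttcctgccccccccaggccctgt
The Sat2 stretch was 49.6% G and C, the Sat1 stretch 59.6%, the Ass1 stretch 75.6% and the Odc1 stretch 80.0%. The searched motifs were the STAT6-type site (TTC and GAA with 4 free bases between them), the STAT-type site TTCNNNGAA, the E-box CACGTG, the C/EBP-type site TTGCGCAA and the TATA box TATAAA, on both strands. They were held by 5.85%, 7.02%, 6.02%, 0.164% and 12.4% of all 32851 promoter stretches of this length. The E-box of Ass1, which starts 36 bases before the gene's start, was the single match among the 4 genes. No other searched motif overlapped it, and a missing match says only that these letters are not in these windows.

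The comparison asked how IL-4 changed the mRNA of these genes. Arg1, the cytosolic arginase, rose about 4-fold and Sat2, a paralog of spermidine/spermine acetyltransferase, fell on its brighter probe. The other 13 of 15 probes, all of which were bright enough to be tested, did not pass the test. Values are log2 signals minus the log2 of the array's own 75th percentile, and a probe was called at an adjusted p under 0.05 (limma over 35988 tested probes, Benjamini-Hochberg). Of all tested probes, 0.911% were called higher and 2.84% lower with IL-4, beside 1 higher and 1 lower among the 15. An unadjusted p under 0.05 was reached by 6 of the 15 probes and by 33.8% of all tested probes. The median log2 difference was 0.12 over the 15 probes and -0.06 over all tested probes.

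**Figure D1:**
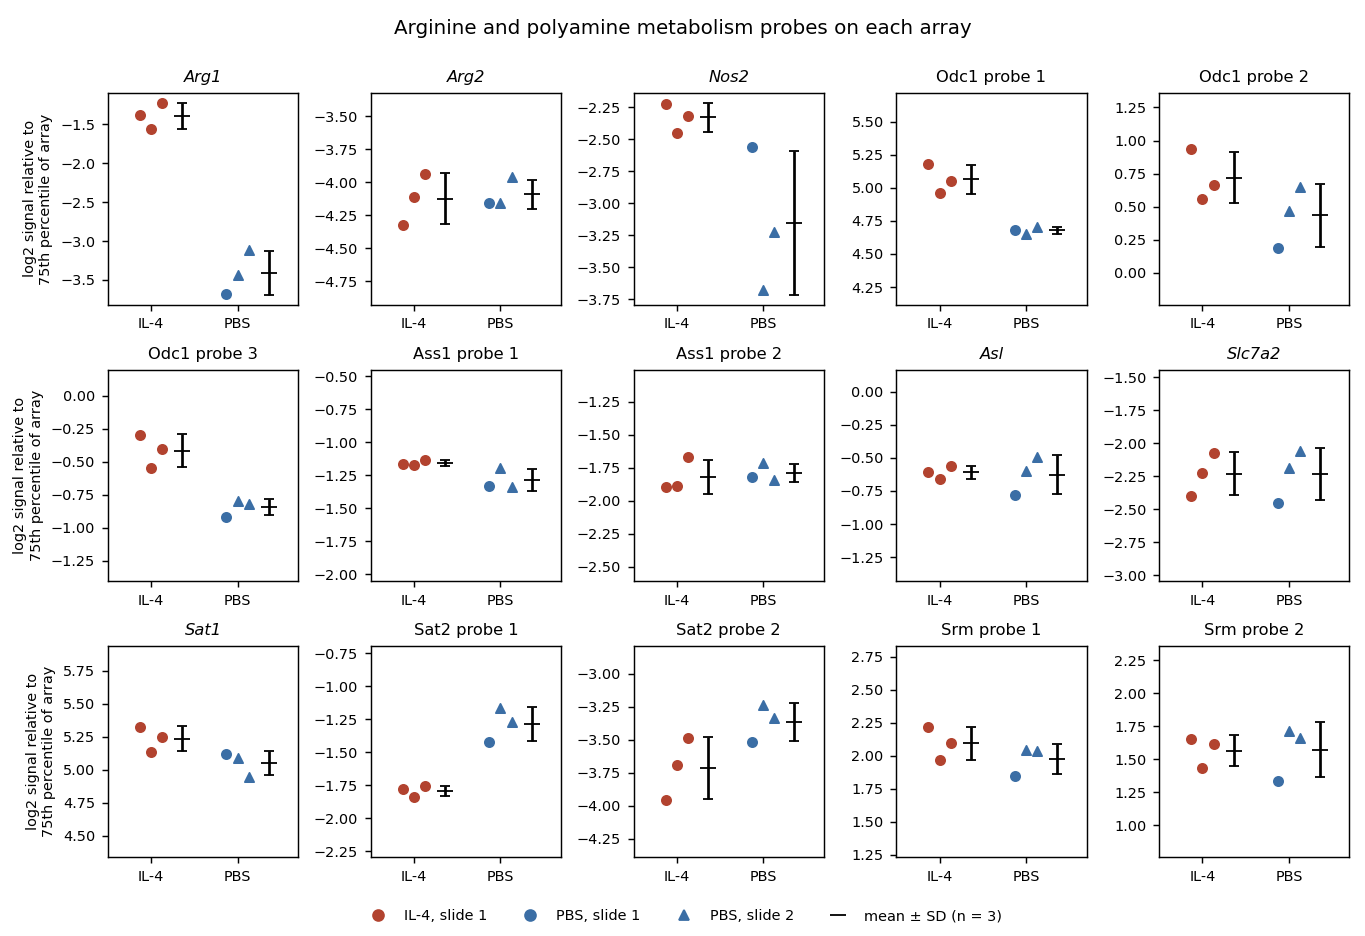
Log2 signal of each probe on each array, relative to the array's 75th percentile, with a panel for each probe; points are arrays (circles on slide 1, triangles on slide 2), and bars are the mean ± SD of 3 arrays. The 3 IL-4 arrays of Arg1 sit between -1.56 and -1.23, above all 3 PBS arrays, and PBS replicate 1 of Nos2 sits near the IL-4 arrays.

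Arg1 encodes the arginase that macrophages induce in alternative activation, and it was measured by probe A_51_P303160. Its log2 signal was -1.39, -1.56 and -1.23 on the IL-4 arrays, against -3.68, -3.44 and -3.12 on the PBS arrays. The groups did not overlap, and the gap between them, at its narrowest, was wider than the whole range of either group. The processed signal was 278 to 313 with IL-4 and 62.2 to 83.6 with PBS, so the probe stayed below the array's 75th percentile in both groups. The difference was 2.02 ± 0.16 (log2, SE, n = 3 each; adjusted p = 0.011, limma), or 4.06-fold. Within slide 1 it was larger, 2.29 or 4.88-fold, as PBS replicate 1 was the lowest of the PBS arrays, and with slide as a block the gene was still called (adjusted p = 0.027). The call was lost on the 4 arrays of slide 1 alone (adjusted p = 0.068) and without IL-4 replicate 1, 2 or 3 or PBS replicate 2 (adjusted p = 0.0588, 0.0787, 0.0997 and 0.0876), while the difference stayed between 1.89 and 2.17 without any single array. Under normexp background correction it was 1.41 or 1.40, a smaller fold, and the gene was called (adjusted p = 6.13e-04 and 0.0056).

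Arg2, the mitochondrial arginase, gave a difference near 0. Its probe A_52_P374897 read -4.32, -4.11 and -3.94 with IL-4 and -4.15, -4.16 and -3.96 with PBS. The groups overlapped fully. The probe was dim, with a processed signal of 36.4 to 49.6 over the arrays, although it was well above background on all 6. It lay below the median probe of every array (-2.71 to -2.59). The difference was -0.03 ± 0.13 (adjusted p = 0.87), with a 95% interval of -0.33 to 0.26, and within slide 1 it was 0.03. The change of Arg1 exceeded that of Arg2 by 2.05 on the log2 scale, and by 2.26 within slide 1. An exact two-sided permutation test of this within-array ratio gave p = 0.1, the smallest that 3 arrays against 3 allow, and 0.27 after adjustment over the 8 probe pairs compared.

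Nos2 encodes inducible nitric oxide synthase, the enzyme that competes with arginase for arginine. Its probe A_55_P2158741 read -2.22, -2.45 and -2.32 with IL-4, against -2.56, -3.68 and -3.23 with PBS. The groups did not overlap, but PBS replicate 1 exceeded the average of PBS replicates 2 and 3 by 0.89 and lay close to the IL-4 arrays. The difference of 0.83 ± 0.25 over all arrays did not pass (adjusted p = 0.073, limma). Within slide 1 it was 0.24, and with slide as a block the adjusted p was 0.76. Without PBS replicate 1, the comparison was entirely between slides, the difference was 1.12 and the probe was called (adjusted p = 0.0022). It was also called with normexp and 75th percentile scaling (0.47, adjusted p = 0.040). Whether PBS replicates 2 and 3 differed from the IL-4 arrays by group or by slide cannot be told apart. The change of Arg1 exceeded that of Nos2 by 1.19, or by 2.05 within slide 1, with no overlap of the groups (exact permutation p = 0.1, the smallest possible, and 0.27 adjusted over the 8 pairs).

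Slc7a2 encodes a cationic amino acid transporter (CAT-2) that carries arginine into macrophages. Its probe A_52_P77764 read -2.40, -2.22 and -2.07 with IL-4 and -2.45, -2.19 and -2.06 with PBS, so the groups covered the same range. The difference was 0.00 ± 0.14 (adjusted p = 0.99; 95% interval -0.32 to 0.32), and within slide 1 it was 0.22. Slc7a1, the widely expressed transporter CAT-1, gave a difference of -0.07 ± 0.11 and Slc3a2, the heavy chain shared by several amino acid transporters, 0.11 ± 0.12 (adjusted p = 0.67 and 0.54).

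Ass1 and Asl encode argininosuccinate synthase and lyase, the enzymes that rebuild arginine from citrulline. The brighter Ass1 probe, A_55_P2004781, read -1.16, -1.18 and -1.13 with IL-4 against -1.33, -1.19 and -1.34 with PBS. These groups did not overlap, although by a narrow margin, and the difference of 0.13 ± 0.10 did not pass (adjusted p = 0.36). The dimmer probe, A_55_P2143070, read -1.89, -1.89 and -1.67 with IL-4 and -1.82, -1.71 and -1.84 with PBS, a difference of -0.03 ± 0.11 (adjusted p = 0.88). Both probes target the same transcript, and their changes differed by 0.15 (exact permutation p = 0.1, and 0.27 adjusted over the 8 pairs). Asl (A_51_P174645) read -0.61, -0.66 and -0.56 with IL-4 and -0.78, -0.60 and -0.49 with PBS, with overlap and a difference of 0.02 ± 0.11 (adjusted p = 0.92).

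**Figure D2:**
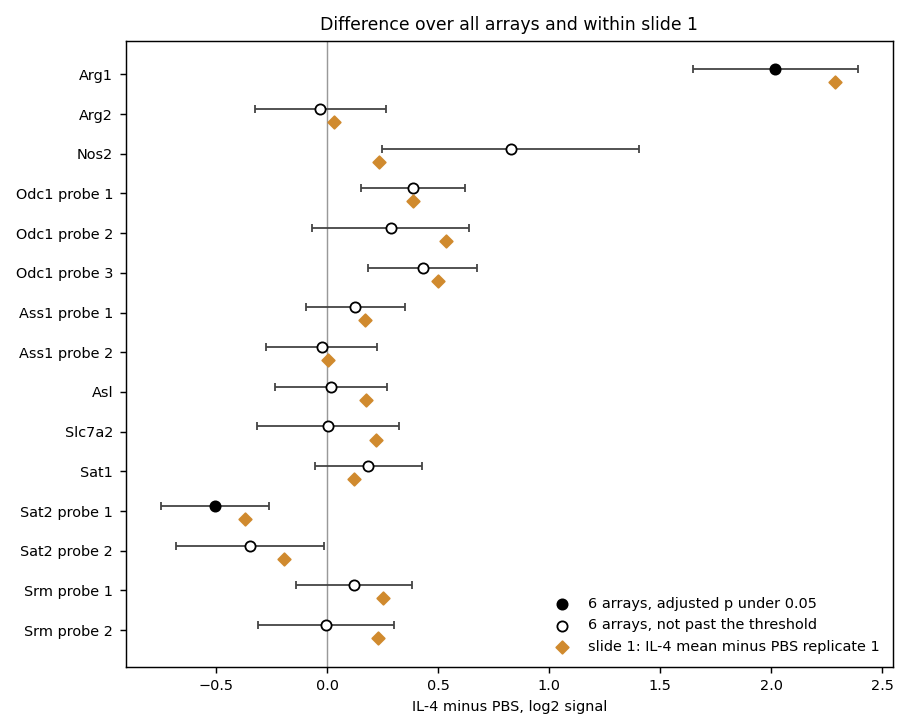
IL-4 minus PBS in log2 signal for the 15 probes, as the limma estimate over 6 arrays with its 95% interval (circles) and as the mean of the IL-4 arrays minus PBS replicate 1 within slide 1 (diamonds). Arg1 stands at 2.02 and 2.29, and the Nos2 estimate of 0.83 is 0.24 within slide 1.

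Odc1 encodes ornithine decarboxylase, which makes putrescine and is the rate-limiting enzyme of polyamine synthesis. All 3 of its probes gave a positive difference, but none passed. The brightest, A_55_P1995173, read 5.18, 4.96 and 5.06 with IL-4, against 4.68, 4.65 and 4.70 with PBS, with no overlap and a difference of 0.39 ± 0.10 (adjusted p = 0.060, limma). The dimmest, A_55_P1982818, read -0.30, -0.55 and -0.40 with IL-4 and -0.92, -0.80 and -0.82 with PBS, again with no overlap (0.43 ± 0.11, adjusted p = 0.057). On the remaining probe, A_52_P436238, the groups overlapped, at 0.93, 0.56 and 0.66 with IL-4 and 0.18, 0.46 and 0.65 with PBS (0.29 ± 0.15, adjusted p = 0.22). Within slide 1 the differences were 0.39, 0.50 and 0.54 in that order, and with slide as a block the adjusted p-values were 0.36, 0.27 and 0.35. The changes of the 3 probes differed from each other by at most 0.15 (exact permutation p = 0.3 to 0.6). The brightest and the dimmest probe were called under 4 of 21 and 6 of 19 alternatives, among them the removal of PBS replicate 1 (adjusted p = 0.021 and 0.022), and the remaining probe was called under none of its 19 (lowest adjusted p = 0.14).

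Srm encodes spermidine synthase, which uses putrescine. Its probe A_51_P300709 read 2.22, 1.97 and 2.10 with IL-4 and 1.84, 2.04 and 2.03 with PBS, and A_55_P2002376 read 1.65, 1.43 and 1.61 with IL-4 and 1.34, 1.72 and 1.66 with PBS. Both pairs of groups overlapped, with differences of 0.12 ± 0.11 and -0.01 ± 0.13 (adjusted p = 0.47 and 0.98). On both probes PBS replicate 1 was the lowest PBS array, and within slide 1 the differences were 0.25 and 0.23.

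Sat1 encodes the inducible spermidine/spermine acetyltransferase that marks polyamines for oxidation or export. Its probe A_55_P1989321 read 5.32, 5.13 and 5.24 with IL-4, against 5.11, 5.09 and 4.94 with PBS. The groups did not overlap, though the gap between them was smaller than the range of either group, and the difference of 0.18 ± 0.10 did not pass (adjusted p = 0.24). It was 0.12 within slide 1 and turned to -0.04 under normexp with quantile normalization.

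Sat2 encodes a paralog of Sat1. Its brighter probe, A_55_P2047345, read -1.78, -1.84 and -1.76 with IL-4, against -1.42, -1.16 and -1.27 with PBS. All IL-4 arrays were lower than all PBS arrays, and the IL-4 arrays lay close together. The difference was -0.51 ± 0.11, or 1.42-fold lower with IL-4 (adjusted p = 0.047, limma). The slide 1 difference was -0.37, which the slide-block fit did not call (adjusted p = 0.34). The call was also lost on slide 1 alone (adjusted p = 0.43), with slide as a random block (0.14), with 2 other settings of the filter or scaling (0.082 and 0.051), with the mean of both probes (0.069), and without any single array except PBS replicate 1 (0.14 to 0.19), while the difference kept its sign under all 21 alternatives. The dimmer probe, A_55_P2345425, read -3.96, -3.70 and -3.49 with IL-4 and -3.52, -3.24 and -3.34 with PBS. These groups overlapped, and the difference of -0.35 ± 0.14 did not pass (adjusted p = 0.13).

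In terms of overlap alone, 6 of the 15 probes were higher and 1 lower on every IL-4 array than on every PBS array. Over all tested probes, such separation held for 17% of probes upwards and 20.6% downwards. Within slide 1, where no replicate of PBS was available, 13 of the 15 differences were above 0, with a median of 0.22, whereas over all tested probes 50.1% were above 0, with a median of 0.00. The 2 differences below 0 were those of Sat2. With slide as a block Arg1 was the 1 member called, beside 0.0556% of all tested probes.

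The surrounding pathway was described by 66 further genes of arginine transport, nitric oxide synthesis, the urea cycle, ornithine and creatine metabolism, polyamine turnover and transport, and hypusine synthesis. Of these, 63 had a probe, and 86 probes of 60 genes were tested. At the same threshold, 1 probe rose, 2 fell and 83 did not pass, against 3.75% called in either direction over all tested probes. The median difference was -0.07, close to the -0.06 of all tested probes. Within slide 1, 46 of the 86 differences were above 0, with a median of 0.04. None of these 86 probes was called with slide as a block (limma; lowest adjusted p = 0.16). In that fit, 14 of the 86 had an unadjusted p under 0.05, beside 3650 of all 35988 tested probes.

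Azin2, which encodes an antizyme inhibitor that frees ornithine decarboxylase, rose on its dimmer probe. That probe, A_66_P140742, read -3.65, -3.53 and -3.46 with IL-4, against -4.07, -4.11 and -4.20 with PBS, without overlap (0.58 ± 0.10, adjusted p = 0.037, and 0.52 within slide 1). The brighter Azin2 probe, A_55_P2084248, gave a difference near 0 (-0.07 ± 0.13, adjusted p = 0.70). Atp13a2, a lysosomal polyamine exporter, fell. It read 0.64, 0.74 and 0.69 with IL-4 and 1.37, 1.86 and 2.02 with PBS (-1.06 ± 0.17, adjusted p = 0.032, and -0.68 within slide 1). Adi1, an enzyme of the methionine salvage pathway that recycles the by-product of polyamine synthesis, fell on its brighter probe. That probe read 0.39, 0.27 and 0.28 with IL-4 and 0.79, 1.11 and 1.14 with PBS (-0.70 ± 0.12, adjusted p = 0.036, and -0.48 within slide 1), and its dimmer probe differed by -0.36 ± 0.10 (adjusted p = 0.062). On the called probes of Azin2, Atp13a2 and Adi1, PBS replicate 1 was the PBS array nearest to the IL-4 arrays, for Azin2 by a narrow margin. None of these 3 calls held with slide as a block, on slide 1 alone, or without any 1 array other than PBS replicate 1. Under normexp the Azin2 difference was smaller, at 0.28 with 75th percentile scaling, where the call was lost (adjusted p = 0.11), and 0.31 with quantile normalization, where it was called (adjusted p = 0.039).

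The remaining genes that had been fixed by name did not pass. Oaz1, the antizyme that targets ornithine decarboxylase for degradation, differed by -0.21 ± 0.12 (adjusted p = 0.23). The 3 probes of Azin1, another antizyme inhibitor, differed by 0.27, 0.12 and -0.07 (adjusted p = 0.12 to 0.66). Sms, spermine synthase, had 3 probes that disagreed. Their differences were 0.66 ± 0.15, 0.15 ± 0.10 and -0.29 ± 0.12 from the brightest to the dimmest (adjusted p = 0.052, 0.33 and 0.12). Within slide 1 the Sms differences were 0.35, 0.21 and -0.14 (adjusted p = 0.44, 0.62 and 0.79 with slide as a block, limma). On the brightest Sms probe, PBS replicate 1 was the highest PBS array. Smox, spermine oxidase, differed by 0.01 on both of its probes over all arrays (adjusted p = 0.94 and 0.98). Within slide 1 the Smox differences were 0.20 and 0.61 (adjusted p = 0.60 and 0.24 with slide as a block), as PBS replicate 1 was the lowest PBS array on both probes. Eif5a, the factor that carries hypusine made from spermidine, differed by 0.25 ± 0.11 (adjusted p = 0.16). Oat, ornithine aminotransferase, which diverts ornithine towards proline and glutamate, differed by -0.01 ± 0.11 (adjusted p = 0.97). The 2 probes of Gch1, GTP cyclohydrolase, which supplies the cofactor of nitric oxide synthase, gave 0.15 ± 0.11 and -0.57 ± 0.15 (adjusted p = 0.37 and 0.059). Amd1 had no matched probe and is not analysed here.

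**Figure D3:**
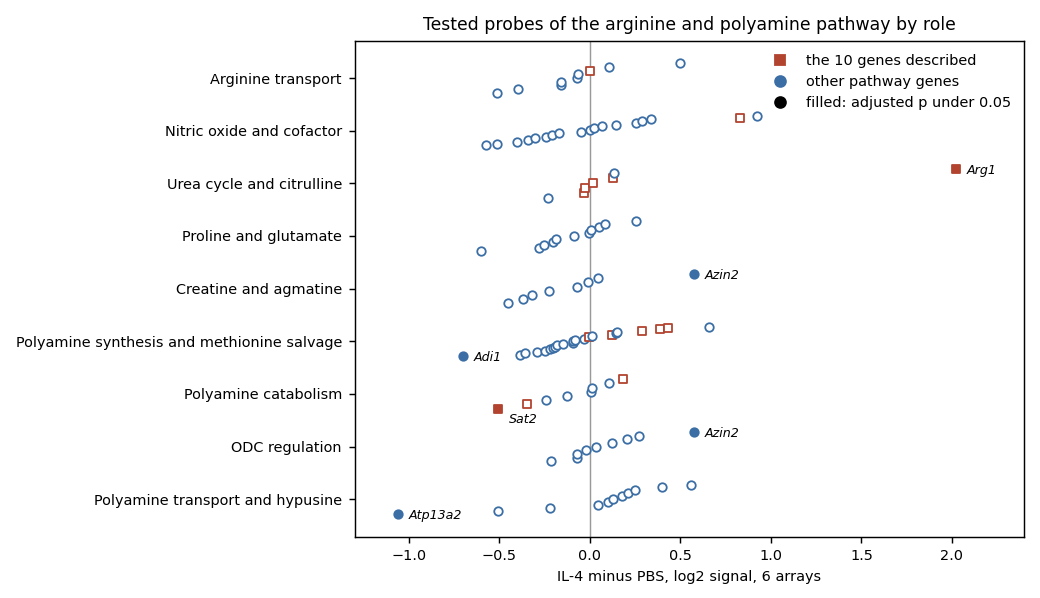
IL-4 minus PBS in log2 signal over 6 arrays for every tested probe of the pathway, in rows by role; squares are the 10 genes, circles other pathway genes, and filled symbols have an adjusted p under 0.05. Arg1 lies at 2.02, away from the other probes of its row, and the remaining called probes are Sat2, Azin2, Atp13a2 and Adi1, with Azin2 shown in both rows that list it.

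The profile of Arg1 over the 6 arrays was compared with those of the brightest tested probes of 19047 named genes, each centred on its own mean. By root mean square difference, the 5 nearest genes were Ccl7, Fbxo15, Il6, Ccl12 and Cish, at 0.26, 0.40, 0.46, 0.48 and 0.49 on the log2 scale. The chemokine gene Ccl7 differed between IL-4 and PBS by 2.48 ± 0.17, and Fbxo15, which encodes an F-box protein, by 1.26 ± 0.13. The cytokine gene Il6 differed by 1.44 ± 0.20, the chemokine gene Ccl12 by 1.15 ± 0.10 and Cish, a feedback inhibitor of cytokine receptors, by 1.07 ± 0.11. These genes were picked for their likeness to Arg1, so their differences are a description.

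**Figure D4:**
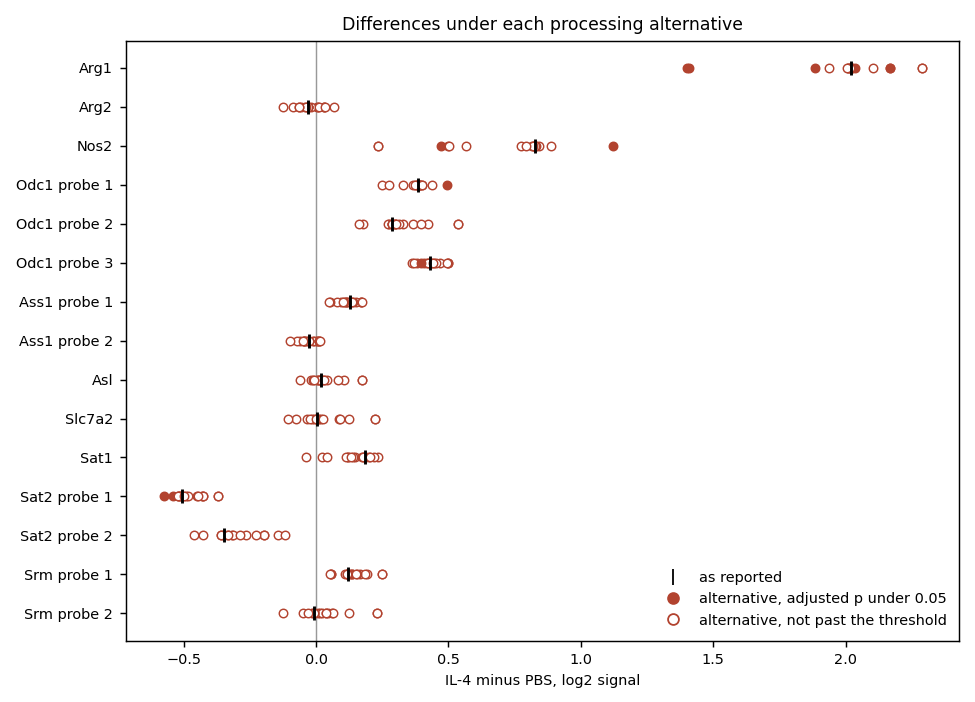
IL-4 minus PBS in log2 signal for the 15 probes under each processing alternative (circles, filled where the adjusted p was under 0.05) and as reported (bars). Arg1 ranges from 1.40 to 2.29 and Nos2 from 0.24 to 1.12, while Arg2 and Slc7a2 lie on both sides of 0.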

How the data were processed

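Spot intensity was measured on 6 single-colour (Cy3) Agilent arrays, 3 per group. Per the file headers, the authors extracted the deposited intensity values, which are linear, with Feature Extraction 11.0.1.1 of Agilent, and that program subtracted the background of the processed signal within each array. A deposited value table of the authors holds log2 values with a median of 6.92 in every column. Its scale and direction matched the log2 processed signal (correlation across probes 0.999 or above), how it was normalized stays unknown, and it served as an alternative.

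Control spots and outlier-flagged spots were removed (no spot of the 10 genes was flagged), copies of a probe were averaged, and log2 processed signals were set relative to each array's 75th percentile. A probe was tested where all arrays of 1 group or both had it well above background, and the resulting 35988 probes were fitted with limma 3.58.1 in R 4.3.3. Symbols came from accessions in a RefSeq table (GRCm38.p6), which named 27234 probes (69.1%). The mouse build in the file headers differs, so the coordinates printed are those of the RefSeq promoter stretches on GRCm38.p6, and none is a probe's. Slides were told apart by scan record and array position. Normexp (offset 50) used the median signal, since the mean signal that had been planned is not a column of the files. The steps were tested on simulated data. Apart from cell type markers, genes named were the 10 members, 10 further genes fixed by name, every called pathway gene, and the 5 nearest to Arg1. The last section also names some uncalled pathway genes, which were chosen after their values were seen. One marker gene of the macrophage list is not reported here, and its sums leave it out. The members and lists were chosen with earlier results of these data known. Alternatives covered scaling, background, filter, probe choice, slide, replicate block and leaving out each array.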

Additional observations from a re-analysis of the deposited data

How the results depend on the processing

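Of the 15 probes, 2 were called, and 1350 of all tested probes. The counts were 1 and 20 with slide as a block, 0 and 1 on slide 1 alone (limma; 5 and 3369 at an unadjusted p under 0.05), and 1 and 86 with slide as a random block. They were 3 and 3608 with quantile normalization, 2 and 2240 with median scaling, 3 and 3108 with the authors' table, and 1 and 948 with the percentile over probes above background on all arrays. Normexp, added after seeing the data in this form, gave 5 and 4781 with the 75th percentile and 2 and 3934 with quantile scaling. With no filter on dim probes they were 1 and 18, with probes above background on all arrays 4 and 4136, with the mean of a gene's probes 1 and 601, and with a trended and robust eBayes 4 and 4986. Leaving out each array gave 0 to 5 and 0 to 14955, the highest without PBS replicate 1 and 0 of all probes without IL-4 replicate 1 or PBS replicate 2 (limma; 8737 and 7514 at an unadjusted p under 0.05). Higher probes were 24.3% of all calls and 48.7% under normexp with the 75th percentile. The causes were not tested.

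Arg1 kept its direction under all 21 alternatives (1.40 to 2.29), was called under 16, and was not called on slide 1 alone (2.29, adjusted p = 0.068). Without single arrays it was 1.89 to 2.17. Its difference within slide 1, 2.29, was 1.65 and 1.52 with normexp and 2.21 to 2.37 without single IL-4 arrays. The sign of a difference that was not called turned under 7 alternatives for Arg2, 7 for Slc7a2, 4 for Asl, 1 for Sat1, 11 for the dimmer Srm probe and 5 for the dimmer Ass1 probe. For the other probes of the 10 genes no sign turned. With the replicate number as a block, 3 of the 15 probes, Arg1, Sat2 and Nos2 (adjusted p = 0.039), and 4455 of all were called. Deviations of same-numbered arrays correlated at 0.08, -0.03 and 0.30, and IL-4 replicate 2 correlated best with PBS replicate 1, so the arrays share a number and were not treated as pairs.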

Other observations

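Some uncalled pathway probes, chosen after their values were seen, separated the groups. Of the 86 tested probes of the further pathway genes, called or not, 14 separated upwards and 22 downwards. Such separation held for 17% and 20.6% of all tested probes, so it does not set these probes apart. The brighter probe of Nos3, endothelial nitric oxide synthase, read -0.63, -0.76 and -0.66 with IL-4, against -1.13, -1.60 and -2.09 with PBS (0.92 ± 0.22, adjusted p = 0.054, limma). As for Nos2, PBS replicate 1 was the highest PBS array, and the difference within slide 1 was 0.45. The dimmer Nos3 probe gave -0.21 ± 0.13 (adjusted p = 0.27). Slc7a6, a subunit of a transporter that exchanges arginine, differed by -0.52 ± 0.12 (adjusted p = 0.051, and -0.31 within slide 1). Aldh4a1, an enzyme of proline breakdown, differed by -0.60 ± 0.16 (adjusted p = 0.060, and -0.25 within slide 1). Eif5a2, a paralog of Eif5a, differed by 0.56 ± 0.14 (adjusted p = 0.057, and 0.30 within slide 1). Other uncalled probes that separated the groups had a larger difference within slide 1, such as the brighter probe of Atp13a4, a P5-type transport ATPase (0.40 ± 0.13, adjusted p = 0.084, and 0.54 within slide 1).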
